A study of Mus musculus with 8 samples.

Results

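The 2 ways of disturbing retinoic acid signalling in Langerhans cell (LC)-like cells were set against each other, gene by gene: adding retinoic acid (RA) to wild-type (WT) cells, and deleting its receptor RARα. The quantity described here is the RA effect minus the RARα-loss effect. The RA effect is the log2 fold change of the RA libraries over the Control libraries, and the RARα-loss effect is that of the ∆Rara CD11c libraries over WT 1 and WT 2. All 8 libraries of the series entered it, chosen by the names of their columns in the deposited count table. They were 2 of WT cells cultured with RA, 2 of WT cells cultured without it (Control), 2 of ∆Rara CD11c cells, in which a floxed *Rara* is cut by Cre under the CD11c promoter, and 2 further WT libraries (WT 1 and WT 2). The ∆Rara CD11c libraries were counted beside WT 1 and WT 2, and the RA libraries beside Control, so neither effect shares a control with the other. The kind of disturbance and the experiment in which it was done cannot be told apart.

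All groups were bone marrow (BM) cells of mice grown in 10% fetal bovine serum with 20 ng/ml GM-CSF and 10 ng/ml TGFβ1, for 3 to 5 days by the labels, after which CD11c+ cells were collected on magnetic beads and their polyadenylated RNA was sequenced. The labels name both regular and charcoal-treated serum, and the paper says that the sequenced cultures had the charcoal-treated kind, which is low in RA, for the shortest of these times. The labels give RA at 1 nM, whereas the paper states another dose. The mice's ages were not given in the sources used here. Cre under the CD11c promoter acts only once a cell has turned that promoter on, so by design *Rara* is intact in the earlier progenitors of the ∆Rara CD11c cultures. The paper calls the samples of a group independent, and no source used here says whether they stem from different mice or only from different cultures, so the p-values measure the spread between these libraries only, part of which may be technical. Between 26325627 and 76077813 read pairs were counted per library. The labelled cell type was checked by its markers: *Itgax*, which encodes CD11c, was at 504 to 1309.8 CPM (read pairs scaled to library size) in all 8 libraries, and the LC genes *Cd207* and *Epcam* were present in the Control, WT 1 and WT 2 libraries. WT 1 and WT 2 stood apart in *Xist*, transcribed from the inactive X of females. They had 91.1 and 253 CPM beside at most 1.08 CPM in the other 6 libraries. By this marker WT 1 and WT 2 held female cells and the ∆Rara CD11c libraries did not. Sex and genotype therefore cannot be told apart in the RARα-loss effect. With chromosomes X and Y left out, 734 genes were called in place of the 757 given below, and 732 were in both. This does not address effects of sex on genes of other chromosomes, which were not tested.

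RARα is a nuclear receptor that binds DNA as a heterodimer with a retinoid X receptor. Without its ligand it recruits corepressors, and RA bound to it replaces them with coactivators, so deleting the receptor removes both activities whereas adding RA shifts it from one to the other. RA also binds RARβ and RARγ. LCs are the dendritic cells (DCs) of the epidermis and carry langerin, encoded by *Cd207*, and EpCAM. They anchor to keratinocytes through E-cadherin and load peptides on MHC class II molecules for T cells.

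The effects of RA and of RARα loss differed at 757 of 12424 tested genes, 6.09% of them, by edgeR's quasi-likelihood test at an adjusted p under 0.05. The difference was above 0 at 231 genes (1.86%) and below 0 at 526 (4.23%), that is, expression was lower with RA relative to Control than in ∆Rara CD11c cells relative to WT. For comparison, the RA effect alone was called at 4291 genes (34.5%) and the RARα-loss effect alone at 3346 (26.9%). By the calls of the effects in the same fit, RA moved 348 of the 757 genes and RARα loss did not (84 raised and 264 lowered by RA). At another 277 both moved the gene the same way and RA did so more strongly (72 raised, 205 lowered). RARα loss moved 95 genes that RA did not (33 raised and 62 lowered by the loss), and moved only 3 genes the same way and more strongly. The effects were called in opposite directions at 32 genes, and at 2 genes neither was called alone. Among the 348 genes moved by RA only, the RARα-loss effect had a median size of 0.24 on the log2 scale, and 91 of them had an unadjusted p under 0.05 for it, so this class says that a threshold was missed and not that RARα loss left the gene as it was. The same limit holds for the 95 genes moved by RARα loss only. Their RA effect had a median size of 0.19, and 22 of them had an unadjusted p under 0.05 for it. At 69 of the 95 the effects had opposite signs.

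**Figure D1:**
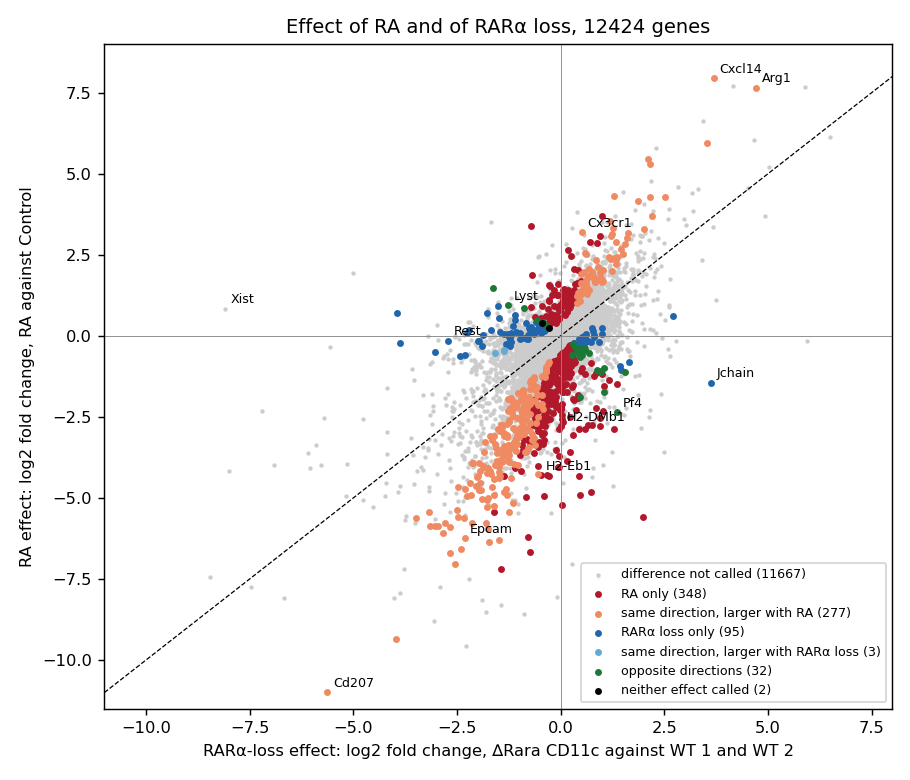
RA effect (vertical axis, log2 fold change of RA over Control) against RARα-loss effect (horizontal axis, log2 fold change of ∆Rara CD11c over WT 1 and WT 2) for 12424 genes, 1 point per gene. The dashed line marks equal effects and colours mark the 757 genes called in the difference by class; most coloured points lie below the line in the lower left and lower middle, where RA lowered expression.

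The count rested on how many libraries were used. It was 335 without RA replicate 1, 198 and 199 without either Control library, 376 without WT 1 and 207 without WT 2, and between 598 and 644 without any 1 of the other 3 libraries. Of the 757 genes, 142 were called in all 8 of these fits, and genes described below with values in every library are of this kind unless a smaller number of fits is given. The split by sign also depended on scaling. With library totals in place of TMM factors the difference was above 0 at 439 genes and below 0 at 417, and the median over all genes was 0.091 in place of -0.028. With each library's trend on gene length removed it was above 0 at 322 and below 0 at 431. Changes are given with TMM factors. No called gene named below turned sign under another scaling or with a trend removed. For genes picked by class, keeping the sign with the gene length trend removed was a condition of being named.

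MHC class II genes were lowered by RA far more than by RARα loss. With RA, the transcripts of class II chains, of the invariant chain, of the peptide exchange factors and of their coactivator *Ciita* were at 1.56 to 24.8% of Control, except *H2-Oa* at 49.4%. In ∆Rara CD11c cells they were at 45.6 to 101% of WT 1 and WT 2, except *Ciita* at 26.2% and *H2-Eb2* at 30.5%. Of the 11 genes listed, all tested, the difference was called below 0 at 10 and above 0 at none, beside 4.23% and 1.86% of all genes. Their median difference was -2.81 on the log2 scale, with a median RA effect of -3.94 and a median RARα-loss effect of -0.55; over all genes the median difference was -0.028. With the gene length trend removed 9 of the 11 were called. Fewer class II-positive cells among those collected and less RNA per cell cannot be told apart in these bulk libraries.

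Class II genes share upstream elements, named X and Y boxes, that are bound by RFX and NF-Y complexes and read by the coactivator CIITA. All 11 genes of the list were called lower with RA. Shown are the sequences of 7 class II promoters on chromosome 17 that hold GATTGG on the strand of the gene. Of these 7 genes, 6 had a difference called below 0 and *H2-Oa* did not. RefSeq promoters (GRCm38.p6, from 250 bases before to 50 after the start) were matched for 8 of the 11 genes. Each stretch of 70 bases ends upstream of the start site and runs 5′ to 3′ along the gene. It was cut around the first GATTGG, so every stretch holds GATTGG at the same place by construction. Capitals mark GATTGG, the core of a Y box, and AGCAAC and GATGATG, letters common in X boxes, searched on both strands.
H2-Aa: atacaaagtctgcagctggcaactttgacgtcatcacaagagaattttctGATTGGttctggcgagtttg
H2-Eb1: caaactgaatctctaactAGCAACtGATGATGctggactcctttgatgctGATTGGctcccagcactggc
H2-Eb2: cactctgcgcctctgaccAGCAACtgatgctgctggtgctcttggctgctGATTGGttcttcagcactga
H2-DMb1: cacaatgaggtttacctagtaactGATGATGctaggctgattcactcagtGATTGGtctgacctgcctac
H2-DMb2: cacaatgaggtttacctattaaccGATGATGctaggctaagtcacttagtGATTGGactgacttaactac
H2-Ob: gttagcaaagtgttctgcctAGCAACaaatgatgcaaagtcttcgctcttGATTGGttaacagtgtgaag
H2-Oa: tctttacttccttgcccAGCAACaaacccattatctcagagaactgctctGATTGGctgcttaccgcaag
GATTGG was found in 16.1% of all 32851 promoters, AGCAAC in 14.8% and GATGATG in 3.48%, and GATTGG together with either of the others in 3.00%. The stretch of *H2-Oa*, which was not called, holds GATTGG and AGCAAC, as do those of *H2-Eb1*, *H2-Eb2* and *H2-Ob*, so these letters did not separate the genes that were called from the one that was not. The stretches lie at chr17:34287853-34287922 for *H2-Aa* (minus strand), chr17:34305757-34305826 for *H2-Eb1*, chr17:34325524-34325593 for *H2-Eb2*, chr17:34153079-34153148 for *H2-DMb1*, chr17:34145108-34145177 for *H2-DMb2*, chr17:34238797-34238866 for *H2-Ob* and chr17:34092285-34092354 for *H2-Oa* (all plus strand but the first).

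*H2-Ab1* and *H2-Aa* encode the chains of I-A, and *H2-Eb1* the β chain of I-E. *H2-Ab1* had 341 and 466 CPM in the RA libraries, against 8115 and 7207 CPM in the Control libraries. It had 5689 and 6679.8 CPM in the ∆Rara CD11c libraries, against 8251 and 9867 CPM in WT 1 and WT 2. The RA libraries lay far below the other 6, and the ∆Rara CD11c libraries just below WT 1 and WT 2 without overlap. The log2 effects were -4.25 with RA and -0.55 with RARα loss, a difference of -3.70 (SE 0.25, adjusted p = 0.00109). *H2-Eb1* had 214 and 295 CPM in the RA libraries, against 5259.7 and 4802 CPM in the Control libraries, and 3718 and 4726 CPM in the ∆Rara CD11c libraries, against 5382 and 6417 CPM in WT 1 and WT 2, with a difference of -3.82 (SE 0.27, adjusted p = 0.00109). *H2-Aa* had a difference of -3.46 (SE 0.29, adjusted p = 0.00186). Neither *H2-Eb1* nor *H2-Aa* was called for RARα loss, at -0.48 (95% interval -0.90 to -0.062) and -0.55 (-1.002 to -0.09), intervals that hold the value of *H2-Ab1*, which was called.

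The invariant chain and the exchange factors differed among themselves. *Cd74*, the invariant chain that escorts class II to the endosome, had 1081 and 1551 CPM in the RA libraries, against 14542 and 13602 CPM in the Control libraries, and 13377 and 16534 CPM in the ∆Rara CD11c libraries, against 21132 and 22739 CPM in WT 1 and WT 2. Its difference was -2.87 (SE 0.26, adjusted p = 0.00212). *H2-DMb1*, a subunit of the DM peptide exchanger, had 90.3 and 97.4 CPM in the RA libraries, against 680.4 and 619 CPM in the Control libraries. In the other experiment it had 722 and 756 CPM in the ∆Rara CD11c libraries, against 738 and 727 CPM in WT 1 and WT 2, values that overlap. Its RARα-loss effect was 0.013 (95% interval -0.20 to 0.23) beside an RA effect of -2.79, and the difference of -2.80 (SE 0.13, adjusted p = 0.000335) had the smallest p of the class II list. *H2-DMa* and *H2-DMb2* had differences of -1.72 and -1.93, called in 4 and 3 of the 8 fits with 1 library left out, and *H2-DMb2* was no longer called with the length trend removed (-1.56, adjusted p = 0.06 from edgeR). *H2-Ob*, of the DO complex that restrains DM, had 2.65 and 3.03 CPM in the RA libraries, against 40.2 and 46.9 CPM in the Control libraries. It had 44.1 and 74.4 CPM in the ∆Rara CD11c libraries, against 113 and 147 CPM in WT 1 and WT 2, and a difference of -2.81 (SE 0.35, adjusted p = 0.00606). Its partner *H2-Oa* was not called, at -0.67 (SE 0.33, adjusted p = 0.266), with 14.3 and 15.3 CPM in the RA libraries, against 33.01 and 26.9 CPM in the Control libraries.

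*Ciita*, the coactivator of the class II promoters, was lowered by both disturbances, and by RARα loss to a smaller share of WT than any other gene of the list. It had 16.9 and 28.8 CPM in the RA libraries, against 401 and 422 CPM in the Control libraries, and 61.1 and 67.1 CPM in the ∆Rara CD11c libraries, against 197 and 293 CPM in WT 1 and WT 2. The ∆Rara CD11c libraries were thus at 26.2% of WT 1 and WT 2 for *Ciita*, but at 68.3% for *H2-Ab1* and 68.2% for *Cd74*; with RA the same genes were at 5.56%, 5.27% and 9.35% of Control. The difference for *Ciita* was -2.23 (SE 0.36, adjusted p = 0.0149), called in 6 of the 8 fits with 1 library left out. *H2-Eb2*, an I-E-like chain at low level, had 0.0601 and 0.113 CPM in the RA libraries, against 5.45 and 5.63 CPM in the Control libraries and a difference of -4.20 (SE 0.62, adjusted p = 0.0113), also called in 6.

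**Figure D2:**
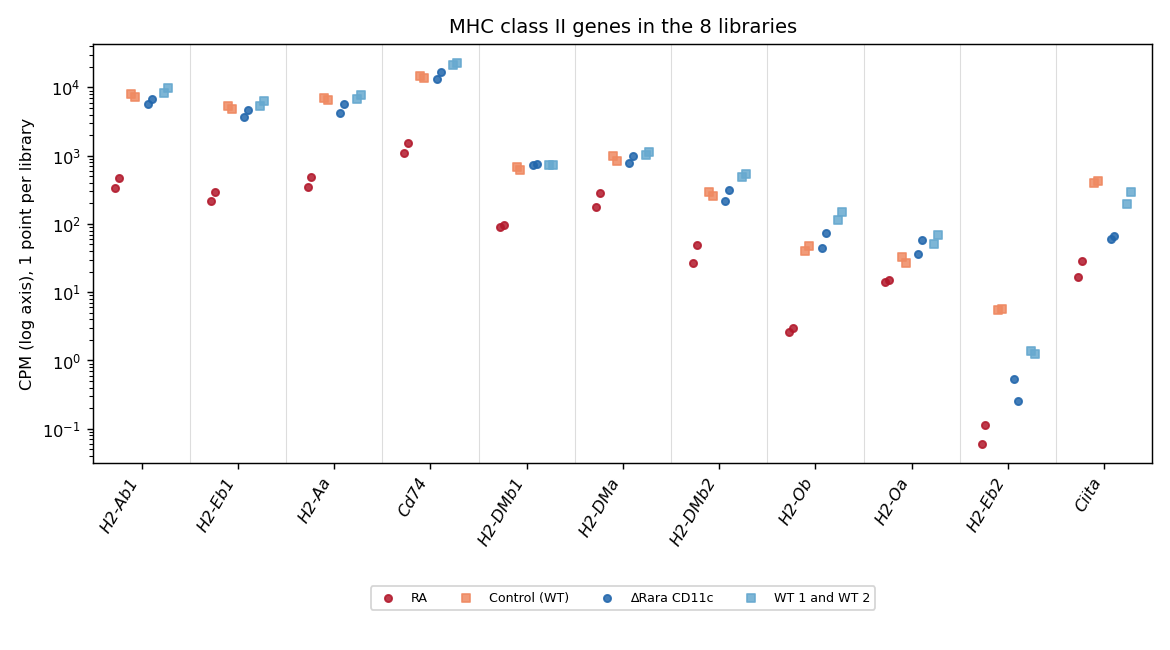
CPM on a log axis of the 11 MHC class II list genes in each of the 8 libraries, 1 point per library, with RA left of Control and ∆Rara CD11c left of WT 1 and WT 2. The RA points lie below the other 6 libraries for every gene; the ∆Rara CD11c points lie near those of WT 1 and WT 2 except for *Ciita*, *H2-Ob*, *H2-DMb2* and *H2-Eb2*.

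Most LC genes fell under both disturbances: of 9 LC markers, 6 were called lower and 2 higher for RA, and the same numbers for RARα loss. In the difference, 5 were called below 0 and 1 above 0, beside 4.23% and 1.86% of all genes. The markers had a median difference of -1.14, although the median of their RA effects (-1.91) lay above that of their RARα-loss effects (-2.08). *Cd207* had 0.0401 and 0.0377 CPM in the RA libraries, against 70.6 and 97.7 CPM in the Control libraries, and 0.540 and 0.259 CPM in the ∆Rara CD11c libraries, against 18.4 and 19.8 CPM in WT 1 and WT 2. Only 4 read pairs of *Cd207* were counted in the RA libraries together, against 8711 in Control, or 0.0460% of the Control level with a 95% counting interval of 0.0125 to 0.118% (Clopper-Pearson, counting error only). Its fitted effects were -10.99 with RA and -5.62 with RARα loss, and the difference was -5.36 (SE 0.66, adjusted p = 0.00573). The Control libraries were also 2.14 log2 units above WT 1 and WT 2 for this gene, and RA minus ∆Rara CD11c was -3.22.

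*Epcam*, an LC marker, had 4.83 and 7.48 CPM in the RA libraries, against 489 and 446 CPM in the Control libraries. It had 80.1 and 68.97 CPM in the ∆Rara CD11c libraries, against 381 and 359.8 CPM in WT 1 and WT 2, and its difference was -3.93 (SE 0.26, adjusted p = 0.00109). *Mfge8*, a bridging protein for the uptake of dying cells, had 97.9 and 139.7 CPM in the RA libraries, against 4439 and 5374 CPM in the Control libraries, and 1644 and 1538 CPM in the ∆Rara CD11c libraries, against 7797 and 10114 CPM in WT 1 and WT 2, a difference of -2.88 (SE 0.28, adjusted p = 0.00256). For both genes the groups did not overlap within either experiment, and Control minus WT 1 and WT 2 was 0.34 on the log2 scale for *Epcam* and -0.87 for *Mfge8*. *Cdh1*, which encodes E-cadherin, and the non-classical class I gene *H2-M2* had differences of -1.14 and -3.25, each called in 2 of the 8 fits. The LC marker with a difference called above 0 was *Axl*, a receptor tyrosine kinase of LCs, which rose under both, with log2 effects of 1.28 with RA and 0.62 with RARα loss, with a difference of 0.65 called in 1 of the 8 fits.

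Among genes of conventional DCs and C-type lectins were several that RA moved alone. *Cd209a*, a DC-SIGN homologue, had 1.58 and 1.81 CPM in the RA libraries, against 20.6 and 18.1 CPM in the Control libraries. It had 17.2 and 26.3 CPM in the ∆Rara CD11c libraries, against 27.1 and 19.8 CPM in WT 1 and WT 2, ranges that overlap, and its difference was -3.41 (SE 0.34, adjusted p = 0.00278). *Cd209c* of the same family fell under both, with log2 effects of -5.14 with RA and -1.15 with RARα loss, a difference of -3.99 (SE 0.31, adjusted p = 0.00143). *Clec4n*, which encodes dectin-2, had 684 and 809 CPM in the RA libraries, against 1572 and 1596 CPM in the Control libraries, and 1431 and 1677 CPM in the ∆Rara CD11c libraries, against 1611 and 1532 CPM in WT 1 and WT 2; the difference of -1.07 was called in 5 of the 8 fits. Over all genes, 4.23% were called below 0 and 1.86% above 0. Of 21 C-type lectins tested, 5 were called below 0 and none above 0, with a median of -0.71. Of 11 cDC2 markers, 3 were called below 0 (*Cd209a*, *Zbtb46* and *Flt3*), with a median of -0.91. Of 8 cDC1 markers tested, 2 were called below 0 and none above, with a median of -0.30. Both of these were lowered by RA only. *Zbtb46*, a transcription factor of conventional DCs, had a difference of -2.18, and *Flt3*, the receptor for their growth factor, of -2.24, called in 5 and 3 of the 8 fits. *Bcl6*, another DC transcription factor, fell by 2.75 with RA and 1.42 with RARα loss on the log2 scale, a difference called in 7 of the 8 fits.

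Genes of DC maturation and T cell costimulation fell more with RA. Of 21 mature DC genes tested, 8 were called below 0 and none above 0 (median -1.12), and of 13 costimulation and checkpoint genes 5 below and 1 above (median -1.04). The shares over all genes were 4.23% below and 1.86% above. *Cd83*, which stabilises class II and CD86 at the surface, had 3.69 and 3.50 CPM in the RA libraries, against 65.4 and 63.5 CPM in the Control libraries, and 6.57 and 9.04 CPM in the ∆Rara CD11c libraries, against 23.8 and 27.01 CPM in WT 1 and WT 2. Its difference was -2.46 (SE 0.22, adjusted p = 0.00212). *Fscn1*, the actin bundler of mature DCs, had 5.39 and 6.12 CPM in the RA libraries, against 65.7 and 73.2 CPM in the Control libraries, and 9.77 and 11.1 CPM in the ∆Rara CD11c libraries, against 38.3 and 36.5 CPM in WT 1 and WT 2, a difference of -1.75 (SE 0.17, adjusted p = 0.00251). *Traf1* of TNF receptor signalling differed by -2.49 (SE 0.24, adjusted p = 0.00247). For *Cd83* and *Fscn1*, Control also lay above WT 1 and WT 2, by about as much on the log2 scale as RA lay below ∆Rara CD11c.

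The ligands of CD28 moved together. *Cd80* had 18.4 and 19.5 CPM in the RA libraries, against 64.7 and 68.9 CPM in the Control libraries, and 47.6 and 58.8 CPM in the ∆Rara CD11c libraries, against 70.7 and 75.2 CPM in WT 1 and WT 2, and differed by -1.36 (SE 0.17, adjusted p = 0.0057). *Cd86*, *Cd40* and the checkpoint receptor gene *Havcr2* differed by -1.73, -2.04 and -1.63, called in 3, 5 and 2 of the 8 fits. *Pdcd1lg2*, the PD-1 ligand PD-L2, went in opposite directions. It had 14.7 and 17.2 CPM in the RA libraries, against 58.5 and 58.99 CPM in the Control libraries, and 48.4 and 60.3 CPM in the ∆Rara CD11c libraries, against 40.1 and 39.2 CPM in WT 1 and WT 2, so it fell with RA and rose with RARα loss, a difference of -2.34 (SE 0.18, adjusted p = 0.00143). *Icosl*, the ligand of ICOS, was the gene of this list called above 0, at 0.69 in 2 of the 8 fits. *Ccr7*, the receptor that takes mature DCs to lymph nodes, had 5.79 and 6.75 CPM in the RA libraries, against 119 and 133 CPM in the Control libraries, and 10.9 and 21.03 CPM in the ∆Rara CD11c libraries, against 51.8 and 76.7 CPM in WT 1 and WT 2; its difference of -2.32 (SE 0.41, adjusted p = 0.021) was called in 4 of the 8 fits.

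Of 18 chemokine ligands tested, 6 were called below 0 and 1 above 0, beside 4.23% and 1.86% of all genes. The ligands had a median difference of -2.05 that joined a median RA effect of -1.39 with a median RARα-loss effect of 1.18. *Ccl22*, a DC chemokine for CCR4, had 30.2 and 36.5 CPM in the RA libraries, against 517 and 534 CPM in the Control libraries, and 65.5 and 77.8 CPM in the ∆Rara CD11c libraries, against 240.0 and 181 CPM in WT 1 and WT 2. Its difference was -2.42 (SE 0.23, adjusted p = 0.00242), while RA minus ∆Rara CD11c was -1.10 on the log2 scale and Control minus WT 1 and WT 2 was 1.32. *Ccl5*, a T cell attractant, differed by -3.18 (SE 0.46, adjusted p = 0.0105). *Cxcl14* rose under both. It had 31.1 and 32.3 CPM in the RA libraries, against 0.118 and 0.133 CPM in the Control libraries, and 17.2 and 8.30 CPM in the ∆Rara CD11c libraries, against 1.03 and 0.933 CPM in WT 1 and WT 2, a difference of 4.25 (SE 0.57, adjusted p = 0.00789). At these low control levels, Control lay further below WT 1 and WT 2 on the log2 scale than RA lay above ∆Rara CD11c. *Cxcl16*, *Cxcl3* and *Cxcl10* differed by -1.41, -2.61 and -2.27, called in 3, 1 and 2 of the 8 fits.

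Differences above 0 were called at single genes of several lists rather than across macrophage or retinoid genes. *Cx3cr1*, the fractalkine receptor of monocytes and macrophages, had 36.7 and 43.1 CPM in the RA libraries, against 4.05 and 4.64 CPM in the Control libraries. It had 7.07 and 7.84 CPM in the ∆Rara CD11c libraries, against 4.78 and 5.68 CPM in WT 1 and WT 2, and the log2 effects were 3.20 with RA and 0.51 with RARα loss, a difference of 2.69 (SE 0.23, adjusted p = 0.00195). It was the only one of 22 macrophage identity genes tested that was called in the difference; 5 of the 22 had an unadjusted p under 0.05 and DESeq2 called 3. Of the 22, 10 lay above 0 and 12 below, with a median of -0.23. *Arg1*, the arginase of alternatively activated macrophages, rose under both. It had 1323 and 972 CPM in the RA libraries, against 3.95 and 7.44 CPM in the Control libraries, and 489.6 and 415 CPM in the ∆Rara CD11c libraries, against 21.5 and 13.04 CPM in WT 1 and WT 2, a difference of 2.94 (SE 0.45, adjusted p = 0.013). *Pparg*, a nuclear receptor of lipid metabolism, had 172 and 131 CPM in the RA libraries, against 24.2 and 28.7 CPM in the Control libraries, and 64.1 and 54.4 CPM in the ∆Rara CD11c libraries, against 35.9 and 41.1 CPM in WT 1 and WT 2, a difference of 1.90 (SE 0.23, adjusted p = 0.00537), and its target *Angptl4* differed by 0.87 in 4 of the 8 fits.

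*Fn1*, which encodes fibronectin, had 1646 and 1734 CPM in the RA libraries, against 145 and 189 CPM in the Control libraries, and 347 and 354 CPM in the ∆Rara CD11c libraries, against 122 and 169 CPM in WT 1 and WT 2. The RA libraries were highest and the ∆Rara CD11c libraries next, and the difference was 2.07 (SE 0.25, adjusted p = 0.0052). *Sox4*, a transcription factor, was raised by RA alone: it had 24.5 and 20.9 CPM in the RA libraries, against 5.19 and 7.21 CPM in the Control libraries, and 3.49 and 2.82 CPM in the ∆Rara CD11c libraries, against 4.16 and 5.89 CPM in WT 1 and WT 2. Its RARα-loss effect of -0.68 was not called, and the difference was 2.55 (SE 0.34, adjusted p = 0.0083). *Cgnl1*, a junction protein, and *Cd101*, an inhibitory receptor, differed by 2.47 and 2.23 in 7 and 4 of the 8 fits.

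Of the retinoid genes, *Dhrs3* was called above 0, and the receptor gene *Rarg*, given further on, below 0. *Dhrs3* encodes a retinaldehyde reductase that is induced by RA and lowers its synthesis. It had 120.2 and 80.00 CPM in the RA libraries, against 7.21 and 9.87 CPM in the Control libraries. It had 91.1 and 100.0 CPM in the ∆Rara CD11c libraries, against 38.8 and 44.2 CPM in WT 1 and WT 2. The RA and ∆Rara CD11c libraries thus had like levels, 0.067 log2 units apart, and the difference of 2.35 (SE 0.30, adjusted p = 0.00628) came with a Control level 2.28 log2 units under that of WT 1 and WT 2. *Dhrs3* was the only one called of 11 genes of RA metabolism and of 9 RA response genes tested; 4 and 3 had an unadjusted p under 0.05, and DESeq2 called 2 and 3. Among 578 called genes with a RefSeq promoter, 1 (*Cxcl10*) held a DR1 retinoid repeat and none a DR2 or DR5 in those 300 bases on either strand (direct repeats of the receptor motif with spacers of 1, 2 or 5 bases), beside 0.222%, 0.268% and 0.0974% of all promoters.

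Glycolytic genes rose with RA: of 27 glycolysis and hypoxia genes, 20 were called higher and 2 lower for RA, but 6 higher and 4 lower for RARα loss. In the difference, 8 were called above 0 and 1 below 0 (*Ndrg1*, -1.35), beside 1.86% and 4.23% of all genes. Of the 27, 25 lay above 0. The median difference was 0.48, with median effects of 0.71 for RA and 0.077 for RARα loss. *Pfkl*, a phosphofructokinase subunit, had 255 and 238 CPM in the RA libraries, against 64.01 and 57.4 CPM in the Control libraries, and 121 and 128 CPM in the ∆Rara CD11c libraries, against 62.5 and 58.9 CPM in WT 1 and WT 2. Both disturbances raised it and the difference was 0.99 (SE 0.14, adjusted p = 0.00863). *Gapdh* had 2670.4 and 2842 CPM in the RA libraries, against 1612 and 1519 CPM in the Control libraries. It had 1509 and 1700.1 CPM in the ∆Rara CD11c libraries, against 1609 and 1608 CPM in WT 1 and WT 2, and differed by 0.82 (SE 0.14, adjusted p = 0.0186) in 5 of the 8 fits. *Tpi1*, *Pgam1*, *Gpi1*, *Pdk1*, *Ero1l* and *Egln3*, of glycolysis, pyruvate use and the hypoxia response, differed by 0.60 to 1.47 and were called in 1 to 4 of the 8 fits.

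**Figure D3:**
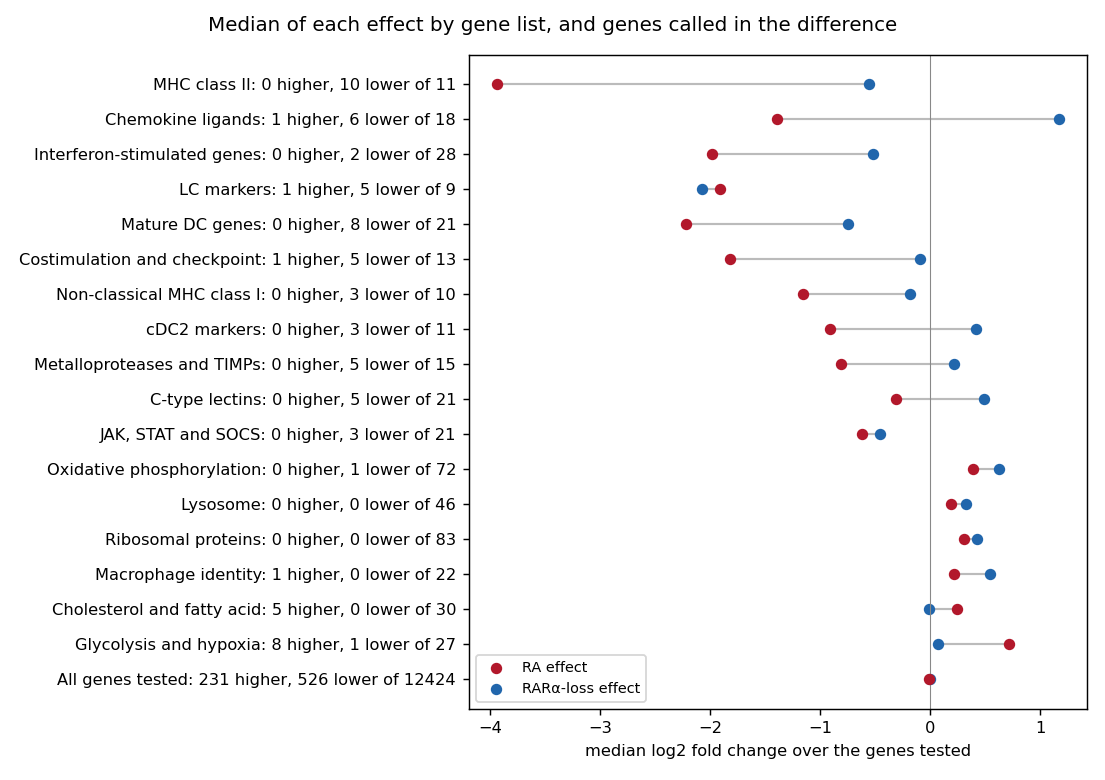
Median log2 fold change over the tested genes of 17 lists and of all genes, for RA over Control (red) and ∆Rara CD11c over WT 1 and WT 2 (blue); each label gives how many genes had a difference called above 0 (higher) or below 0 (lower). The largest gap among the lists drawn is that of MHC class II, where the medians are -3.94 and -0.55.

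Genes that RARα loss moved and RA did not were fewer and less stable. None of the 95 was called in all 8 fits with 1 library left out; the class held 4 to 9 genes without either Control library or WT 2, and 32 to 124 without any 1 of the other 5. The 62 genes lowered by the loss included transcriptional regulators and receptors of innate immunity. *Rest*, a repressor of neuronal genes, had 15.6 and 24.9 CPM in the RA libraries, against 19.3 and 25.7 CPM in the Control libraries. It had 1.58 and 1.39 CPM in the ∆Rara CD11c libraries, against 7.43 and 11.8 CPM in WT 1 and WT 2, so that the ∆Rara CD11c libraries were below all others, and its difference was 2.55 (SE 0.44, adjusted p = 0.0188), called in 5 of the 8 fits. *Rcor1*, the corepressor CoREST that works with REST, had 32.05 and 41.5 CPM in the RA libraries, against 30.7 and 38.4 CPM in the Control libraries, and 2.83 and 4.44 CPM in the ∆Rara CD11c libraries, against 13.9 and 21.3 CPM in WT 1 and WT 2. Its difference of 2.36 (SE 0.38, adjusted p = 0.0153) was called in 7.

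*Nrip1*, the nuclear receptor corepressor RIP140, had 23.9 and 34.2 CPM in the RA libraries, against 15.6 and 19.99 CPM in the Control libraries, and 1.58 and 1.88 CPM in the ∆Rara CD11c libraries, against 3.82 and 7.98 CPM in WT 1 and WT 2. *Irs2*, an adaptor of the insulin receptor, had 13.4 and 13.8 CPM in the RA libraries, against 18.3 and 19.97 CPM in the Control libraries, and 0.582 and 1.199 CPM in the ∆Rara CD11c libraries, against 4.39 and 10.4 CPM in WT 1 and WT 2. Their differences were 2.48 and 2.53, called in 2 and 1 of the 8 fits. *Tlr8*, a sensor of single-stranded RNA, and *Il1rl2*, the receptor for IL-36, differed by 2.43 and 2.40, each called in 3. *Ncoa4*, the ferritin receptor of autophagy, differed by 1.60 and was called for RA only. Of 16 nuclear receptor coregulators tested, *Nrip1* and *Ncoa4* were the 2 called, both above 0, beside 1.86% of all genes. The list did not move as a whole: 10 of the 16 lay below 0, with a median of -0.11.

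The WT libraries of that experiment differed from each other at these genes. WT 1 was below WT 2 at 53 of the 62 genes (85.5%), beside 49.6% of genes not called, and it was 4.39 against 10.4 CPM for *Irs2*. The share of reads in 3′ UTRs ran in the same order, with 48.5 and 46.6% in the ∆Rara CD11c libraries, 39.0% in WT 1 and 35.8% in WT 2, and 34.0 and 32.0% in the RA libraries beside 32.1 and 30.8% in Control. Its part in the result was not tested. Coding sequences of these 62 genes were long, with a median of 2328 bases beside 1389 for genes not called. Their median exon length was 3137.5 bases beside 2850. Of the 58 with known UTRs, 28 were among the 2305 tested genes with the longest coding sequences, whose median was 3417 bases. With the trend on gene length removed, 60 of these 62 genes were still called with the same sign. So were 55 of 58 with known UTRs when trends on UTR and coding length and on GC content were removed.

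The 33 genes raised by RARα loss only were short, with a median exon length of 1103 bases beside 2850.0 for genes not called, and 6 of them were still called with the length trend removed. Among those lost were *Mthfs* of folate metabolism (-1.12, and -0.78 with the trend removed) and *Ndufa3* of respiratory complex I (-0.77 and -0.31). *Timp1*, an inhibitor of metalloproteases, was among those still called. It had 7.78 and 5.12 CPM in the RA libraries, against 13.8 and 8.75 CPM in the Control libraries, and 38.1 and 24.9 CPM in the ∆Rara CD11c libraries, against 10.7 and 9.34 CPM in WT 1 and WT 2, a difference of -2.46 (SE 0.42, adjusted p = 0.0186) in 5 of the 8 fits. *Jchain*, which joins secreted antibody, had 0.0802 and 0.0377 CPM in the RA libraries, against 0.0790 and 0.247 CPM in the Control libraries, and 7.57 and 3.57 CPM in the ∆Rara CD11c libraries, against 0.503 and 0.400 CPM in WT 1 and WT 2, with a difference of -5.08 (SE 0.99, adjusted p = 0.0288) in 3 fits; it is known from plasma cells, and the 4 B cell genes tested summed to 5.22 to 10.0 CPM in ∆Rara CD11c, 3.62 to 11.2 CPM in WT 1 and WT 2, and at most 3.01 CPM in the RA experiment, none of them called (0 with an unadjusted p under 0.05 and 0 with DESeq2). The part of such cells in the *Jchain* value was not tested.

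Only 3 genes were lowered by both disturbances and more by RARα loss. *Dgat2*, which makes triglycerides, had 141 and 137 CPM in the RA libraries, against 185 and 200.5 CPM in the Control libraries, and 36.3 and 35.6 CPM in the ∆Rara CD11c libraries, against 92.3 and 92.4 CPM in WT 1 and WT 2. Its difference of 0.89 (SE 0.12, adjusted p = 0.00844) was called in all 8 fits. *Jup*, the junction protein plakoglobin, and *Wasf2*, of the WAVE complex that branches actin, differed by 0.94 and 1.04 in 1 and 3 fits.

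The sterol and fatty acid genes called were lowered by RARα loss or raised by RA. Of 30 such genes tested, 5 were called above 0 and none below, beside 1.86% and 4.23% of all genes. Of the 30, 24 lay above 0, with a median of 0.28. *Idi1*, an isomerase of the sterol pathway, had 63.3 and 69.4 CPM in the RA libraries, against 62.5 and 60.1 CPM in the Control libraries. It had 38.4 and 40.9 CPM in the ∆Rara CD11c libraries, against 65.7 and 63.8 CPM in WT 1 and WT 2, and the difference of 0.82 (SE 0.13, adjusted p = 0.013) was called in 6 of the 8 fits. *Fads2*, a fatty acid desaturase, and *Nsdhl*, a sterol dehydrogenase, were likewise lowered by RARα loss only (0.97 and 0.65, in 3 and 1 fits), whereas *Acly*, which makes cytosolic acetyl-CoA, and *Dhcr7*, the last enzyme of cholesterol synthesis, were raised by RA only (0.77 and 0.81, in 5 and 1).

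Opposite directions were called at 32 genes, 24 of them lowered by RA and raised by RARα loss. *Pf4*, platelet factor 4, which macrophages also make, had 6.83 and 7.07 CPM in the RA libraries, against 39.6 and 31.3 CPM in the Control libraries. It had 71.7 and 83.3 CPM in the ∆Rara CD11c libraries, against 31.98 and 28.1 CPM in WT 1 and WT 2, and with effects of -2.35 with RA and 1.37 with RARα loss its difference of -3.72 (SE 0.20, adjusted p = 0.000499) was the largest of this class by size. *Blnk*, an adaptor of B cell and myeloid receptors, had 1.54 and 2.15 CPM in the RA libraries, against 4.52 and 7.72 CPM in the Control libraries, and 11.02 and 12.2 CPM in the ∆Rara CD11c libraries, against 4.87 and 6.38 CPM in WT 1 and WT 2, a difference of -2.77 (SE 0.42, adjusted p = 0.0124). *Srgn*, the proteoglycan of storage granules, had 181 and 194 CPM in the RA libraries, against 293 and 273 CPM in the Control libraries, and 568 and 617 CPM in the ∆Rara CD11c libraries, against 395 and 430.3 CPM in WT 1 and WT 2, a difference of -1.11 (SE 0.14, adjusted p = 0.00573), and *Nrp1*, the receptor neuropilin-1, differed by -1.20 (SE 0.17, adjusted p = 0.00949). In the other direction, *Lyst*, which controls the size of lysosomes, had 88.4 and 86.3 CPM in the RA libraries, against 41.3 and 49.7 CPM in the Control libraries. It had 11.7 and 12.2 CPM in the ∆Rara CD11c libraries, against 22.95 and 34.4 CPM in WT 1 and WT 2, and so rose with RA and fell with RARα loss, a difference of 2.21 (SE 0.26, adjusted p = 0.0052). *Vav2*, a guanine nucleotide exchange factor, differed by 1.74 in 2 of the 8 fits.

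**Figure D4:**
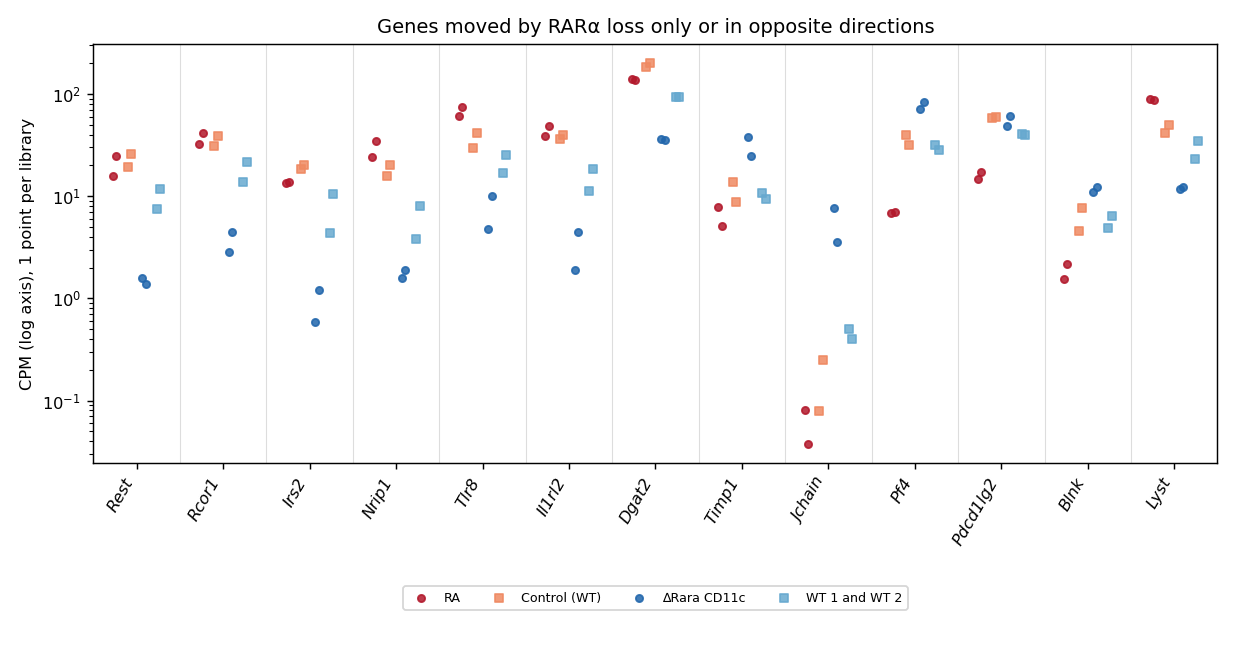
CPM on a log axis in each of the 8 libraries, 1 point per library, for 6 genes lowered by RARα loss only, *Dgat2*, *Timp1* and *Jchain*, and 4 genes that went in opposite directions. RA stands left of Control and ∆Rara CD11c left of WT 1 and WT 2; for *Rest* to *Il1rl2* the ∆Rara CD11c points are the lowest, and for *Pf4* they are the highest while the RA points are the lowest.

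A difference of effects can also be read as the gap between the treated groups less the gap between their controls. At 117 of the 757 genes (15.5%) the Control libraries and WT 1 and WT 2 lay further apart than the RA and ∆Rara CD11c libraries did, beside 30.1% of genes not called. The share was 51.4% among genes raised by both and more by RA, 10.3% among genes moved by RA only and 2.11% among genes moved by RARα loss only. *Apln*, which encodes the peptide apelin, was such a gene. It had 1.30 and 1.47 CPM in the RA libraries, against 46.7 and 38.4 CPM in the Control libraries, and 3.20 and 0.713 CPM in the ∆Rara CD11c libraries, against 3.25 and 1.81 CPM in WT 1 and WT 2, so its difference of -4.54 (SE 0.76, adjusted p = 0.0172), called in 4 of the 8 fits, came with 3 groups at a like low level and 1 high. *Ccr2*, the monocyte chemokine receptor, had 495 and 595 CPM in the RA libraries, against 90.4 and 97.5 CPM in the Control libraries, and 610.1 and 659 CPM in the ∆Rara CD11c libraries, against 242 and 209 CPM in WT 1 and WT 2; the difference was 1.04 (SE 0.17, adjusted p = 0.0163) in 6 fits, called there with Control below WT 1 and WT 2. With RA set directly against ∆Rara CD11c, without an experiment term, its sign turned (-0.22, unadjusted p = 0.724 by edgeR). For *H2-Eb1*, *H2-DMb1*, *Epcam* and *Cx3cr1* the gap between controls was at most 0.34 log2 units.

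**Figure D5:**
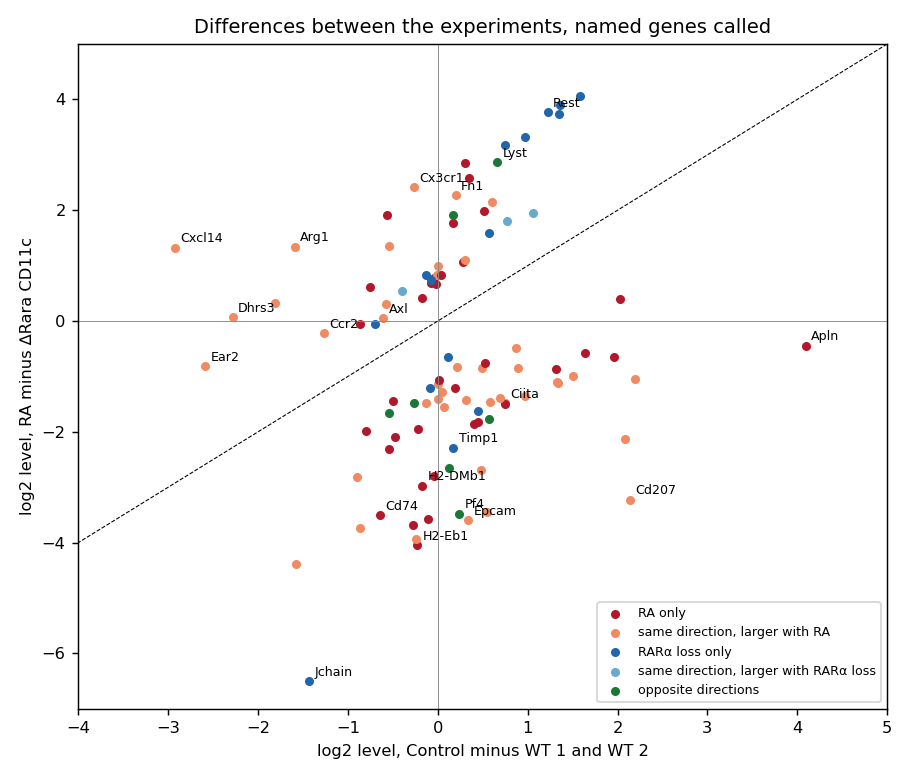
Log2 gap between RA and ∆Rara CD11c (vertical axis) against log2 gap between their controls, Control minus WT 1 and WT 2 (horizontal axis), for the genes named here whose difference was called, 1 point per gene, coloured by class. The dashed line marks equal gaps, where the difference is 0; *Dhrs3* and *Apln* lie near the horizontal zero line, where the gap is that of the controls, and *H2-Eb1*, *Pf4* and *Cx3cr1* near the vertical one.

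For most retinoid receptors, and for the genes of myeloid and LC fate given here, the difference was not called. *Rara*, on chromosome 11 from 98937696 to 98974942 in mm10, had 47.3 and 49.1 CPM in the RA libraries, against 114 and 124 CPM in the Control libraries, and 62.1 and 93.2 CPM in the ∆Rara CD11c libraries, against 104 and 127 CPM in WT 1 and WT 2; the difference of -0.73 (SE 0.26, adjusted p = 0.137) was not called. The counts cover every exon and do not show the deleted one by itself. *Rarg*, which encodes RARγ, had 7.88 and 5.56 CPM in the RA libraries, against 16.7 and 16.8 CPM in the Control libraries, and 23.9 and 29.01 CPM in the ∆Rara CD11c libraries, against 27.6 and 30.8 CPM in WT 1 and WT 2, and was the only one called of 4 retinoid receptors tested, at -1.18 (SE 0.25, adjusted p = 0.0363) in 2 of the 8 fits. *Rxra* had effects of -1.57 with RA and -1.18 with RARα loss and a difference of -0.39 (95% interval -0.81 to 0.033). *Runx3*, which LCs need, differed by -0.69 (95% interval -1.25 to -0.12), and *Cebpb*, a factor of monocytes and macrophages, by 0.12 (-0.49 to 0.72). *Itgam*, *Sirpa* and *Lamtor1* differed by -0.12, 0.22 and -0.0046 and were not called. The intervals of *Rxra*, *Runx3* and *Cebpb* still allow differences of the size called at other genes.

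Several lists held no called gene, beside 6.09% called over all genes. Among 83 ribosomal protein genes none was called, 15 had an unadjusted p under 0.05 and DESeq2 called 4. Among 46 lysosomal genes the numbers were 0, 6 and 2, among 22 genes of the unfolded protein response 0, 9 and 4. Among the shorter lists, where so low a share gives few or no calls, 7 C/EBP genes had 0, 1 and 1, 6 RUNX genes 0, 2 and 1, and 9 IRF genes 0, 2 and 0. All 28 interferon-stimulated genes lay below 0, with a median of -1.37, yet only *Ifi35* and *Cxcl10* were called, 15 had an unadjusted p under 0.05 and DESeq2 called 7. Their summed level was 577 and 903 CPM in the RA libraries, against 1931 and 2237 CPM in Control, and 1164 and 2486 CPM in the ∆Rara CD11c libraries, against 2247 and 2685 CPM in WT 1 and WT 2. The ∆Rara CD11c libraries were far apart in that sum, and 1 of them overlapped WT.

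Markers of other cells moved with some of these results. The 16 neutrophil granule genes tested had a median difference of -1.76 with 1 called (*Prtn3*), and summed to 1055 to 1181 CPM in RA, 1130 to 1706 CPM in Control, 1958 to 3736 CPM in ∆Rara CD11c and 1512 to 3231 CPM in WT 1 and WT 2. The 13 mast cell, eosinophil and basophil genes summed to 151 to 182 CPM in RA, 128 to 146 CPM in Control, 368 to 493 CPM in ∆Rara CD11c and 179 to 243 CPM in WT 1 and WT 2, with 1 called (*Ear2*). These sums hide members that went different ways: 3 were called higher and 4 lower for RA. Their median effects were -1.67 with RA and 1.10 with RARα loss. The median difference was -1.67, and 10 of the 13 lay below 0. An unadjusted p under 0.05 was found at 7, and DESeq2 called 4. The 4 stromal genes tested summed to at most 0.151 CPM in RA, 0.513 to 2.42 CPM in Control and 8.17 to 11.6 CPM in the other 4 libraries, with *Col3a1* called. None of the 5 plasmacytoid DC genes was called (0 with an unadjusted p under 0.05 and 0 with DESeq2), but all lay below 0, with a median of -1.35, and 4 were called lower for RA and 1 for RARα loss. They summed to 9.54 and 16.6 CPM in RA, against 49.4 and 137 CPM in Control, and 9.52 and 6.77 CPM in ∆Rara CD11c, against 26.3 and 15.3 CPM in WT 1 and WT 2. The 4 stromal genes had median effects of -3.98 with RA and 0.23 with RARα loss. Of 5 T and NK cell genes *Thy1* and *Klrb1c* were called, below 0. The part of these cells in the results was not tested.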

How the data were processed

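Read pairs were aligned to mm10 (STAR) and those mapped uniquely were assigned to refGene genes by strand (featureCounts), and the deposited values used here are the authors' raw counts. Versions of these tools were not stated. A column of the same deposited data gave the exon length of each gene in bases, used for trends. The 8 columns of length-scaled values beside the counts were not used. Mapping shares came from a summary deposited by the authors, used as a score. The deposited log2 fold changes and p-values of the authors' own comparisons were not used.

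Counts were fitted in R 4.3.3 with edgeR 4.0.16 (TMM, glmQLFit and glmQLFTest) as 4 groups, RA, Control, ∆Rara CD11c and WT, over the 12424 of 24421 genes that reached 0.5 CPM in 2 or more libraries, with Benjamini-Hochberg adjustment over all of them. The 2 Control columns belong to the WT group, and no name says which is WT 3 and which WT 4. SEs are the size of the log2 value divided by the root of the F statistic, and 95% intervals use 4 residual and 4.06 prior degrees of freedom. CPM used TMM library sizes. The script was tested on simulated data. Genes at few counts carry the largest counting error.

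Genes called were put in classes by the calls of each effect. Named were, per class and sign, up to 6 genes with the largest difference, at least 5 CPM in a group and a sign kept in every fit with 1 library left out and with length trends removed; up to 4 called members per list with the smallest p; and genes the paper names. Examples were taken from these, and further list members were added, after their values were seen. *Fn1*, *Srgn* and *Nrp1*, which come under none of these rules, were also added after their values were seen. Members and lists were chosen with earlier results of these data known. Alternatives were RLE, upper-quartile and total-count scaling, DESeq2 1.42.0, other filters and thresholds, no experiment term, removal of trends on exon length, or on GC content and on UTR and coding length, a replicate block, small RNA features left out, and each library left out. Added after the data were seen were chromosomes X and Y left out, and RA replicate 1 and ∆Rara CD11c replicate 1, which had the highest shares of reads in non-coding exons, left out together. Coding lengths came from GENCODE M21 and were matched for 11526 of the tested genes.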

Additional observations from a re-analysis of the deposited data

Results flagged for a closer look

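Among the 4 WT libraries, 1 of the genes named here had a library set apart from the other 3 by Dixon's ratio for 4 values. *Gapdh* was at 1519 CPM in Control replicate 2, against 1608 to 1612 CPM in the others, a ratio of 0.950 and above its 95% critical value. 113 genes were looked at, and about 1 in 20 such groups passes by chance. The gap of under 100 CPM is small beside the RA libraries, at 2670.4 and 2842 CPM.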

How the results depend on the processing

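Counts of 4 kinds were followed over the alternatives: genes with a difference above 0 (231) and below 0 (526), genes moved by RA only (348) and by RARα loss only (95). With 1 library left out at a time they ranged between 22 and 272, 159 and 481, 80 and 349, and 4 and 124. The group left with 1 library was then assumed to vary like the others. DESeq2 gave 560, 904, 645 and 289 genes. An adjusted p under 0.01 gave 18, 109, 68 and 2, and one under 0.1 gave 529, 945, 601 and 276. RA set directly against ∆Rara CD11c without an experiment term gave 1505, 2083, 1114 and 1361, and turned the sign of *Ccr2* (-0.22), *Dhcr7* (-0.052), *Nsdhl* (-0.057), *Prtn3* (0.39) and *Ear2* (-0.82). Library totals gave 439 genes above 0 and 173 moved by RARα loss only, and no filter 366 and 154. Removing trends on GC content and on UTR and coding length gave 351 above 0 and 468 below. Leaving out RA replicate 1 and ∆Rara CD11c replicate 1 together gave 117 above 0 and 56 moved by RARα loss only. The other scalings, filters and features left out kept all 4 counts within a factor of 1.5. Of the 113 genes named, 22 to 64 lost their call with 1 library left out, and none turned sign. With the exon length trend removed 12 lost it: *Cxcl3*, *Cxcl10*, *Dhcr7*, *H2-DMb2*, *H2-M2*, *Ifi35*, *Mthfs*, *Ndufa3*, *Pdk1*, *Prtn3*, *Socs1* and *Thy1*. The cause of these shifts was not tested. For genes picked by class, an unturned sign with 1 library left out or the length trend removed was a condition of being named.

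The replicate number could be a block only for ∆Rara CD11c and WT 1 and WT 2, where the labels share numbers. The deviations of ∆Rara CD11c replicate 1 and WT 1 correlated at 0.28. Those of RA replicate 1 and the first Control column, which no label pairs, correlated at 0.27. The first value thus does not show that the numbers pair the libraries. With the replicate block 415 genes lay above 0 and 750 below, 482 were moved by RA only and 210 by RARα loss only. With the replicate block and the exon length trend removed the counts were 643, 642, 594 and 191.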

Other observations

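Further families held genes called in the difference. Over all genes, 1.86% were called above 0 and 4.23% below 0. A few calls in a short list do not show that a family moved as a whole. The 21 JAK, STAT and SOCS genes, for example, had a median of -0.28, and 8 of them lay above 0. Of 10 receptors for colony-stimulating factors and related cytokines tested, 2 were called below 0. *Csf3r*, the G-CSF receptor, had 21.4 and 26.8 CPM in the RA libraries, against 165 and 178 CPM in the Control libraries, and 34.6 and 33.3 CPM in the ∆Rara CD11c libraries, against 93.2 and 94.1 CPM in WT 1 and WT 2, a difference of -1.37 (SE 0.17, adjusted p = 0.00573) called in all 8 fits with 1 library left out; *Flt3* was the other. Of 21 JAK, STAT and SOCS genes tested, 3 were called below 0: *Socs5* (-1.05), *Stat4* (-2.09) and *Socs1* (-1.62), in 7, 2 and 2 fits. In the IL-1 family, *Il18r1*, a chain of the IL-18 receptor, was lowered by RA only, with 2.10 and 3.07 CPM in the RA libraries, against 26.6 and 23.1 CPM in the Control libraries, and 15.5 and 20.4 CPM in the ∆Rara CD11c libraries, against 22.7 and 28.6 CPM in WT 1 and WT 2, a difference of -2.75 (SE 0.31, adjusted p = 0.00404), called in all 8 fits. *Il1r1* was also lowered by RA only (-1.28, 1 fit), while *Il1a* rose under both and more with RA (1.55, 6 fits).

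Of 15 metalloprotease and inhibitor genes tested, 5 were called below 0 and none above, beside 4.23% and 1.86% of all genes. *Timp2*, an inhibitor of metalloproteases, had 12.9 and 11.7 CPM in the RA libraries, against 52.8 and 65.9 CPM in the Control libraries, and 37.00 and 50.1 CPM in the ∆Rara CD11c libraries, against 42.4 and 44.9 CPM in WT 1 and WT 2, ranges that overlap in the second experiment, and a difference of -2.27 (SE 0.23, adjusted p = 0.00315), called in all 8 fits. By the calls *Timp2* was lowered by RA only and *Timp1* raised by RARα loss only. *Timp1* also had an RA effect of -0.81, which was not called. The 24 TGFβ and SMAD pathway genes tested had a median of 0.034, and 3 were called above 0. These were *Smad6*, an inhibitory SMAD (1.37), *Acvr1b*, an activin receptor lowered by RARα loss only (1.01), and *Ltbp3*, which binds latent TGFβ (2.13). They were called in 5, 2 and 2 of the 8 fits. Of 10 non-classical MHC class I genes tested, 3 were called below 0, *H2-M3* (-1.40), *H2-T23* (-1.78) and *H2-M2*, in 7, 3 and 2 fits.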
